A study of Mus musculus with 83 samples.

Results

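The change in messenger RNA between the 4-cell stage and the morula was measured in single mouse embryos fertilized by sperm of sham-treated males. All 16 control 4-cell embryos and all 22 control morulae were used, 38 of the 77 embryos and of the 83 libraries in the series, with every one of the 23845 genes in the embryo file. The sires were adult males of 8 to 12 weeks kept for 7 days at a constant 21 °C in an intensive care unit for animals. The other 18 4-cell embryos and 21 morulae came from males that spent 7 days under a daily cycle of 8 h at 35 °C and 16 h at 25 °C. They served here as a second set of embryos in which to measure the same change. They also set a scale between the stages, and their stage change was tested against that of the control embryos. No label gives a strain, a parent, a litter or an embryo's hours after fertilization, so the p-values rest on differences from embryo to embryo, and siblings may be among them.

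A mouse embryo begins on RNA and protein stored in the oocyte, and its own genome is activated in a minor wave in the zygote and a major wave at the 2-cell stage. From the 4-cell stage to the morula the cells divide, then flatten against each other (compaction) and gain an outer apical surface. The outer cells go on to the trophectoderm, the first epithelium and the source of placental cells, and the inner cells to the inner cell mass, which forms the embryo proper. Polarized outer cells hold the Hippo pathway off, which lets YAP1 act with TEAD4 to switch on Cdx2 and Gata3, whereas inner cells keep Sox2 and other pluripotency genes on.

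Each value is in TPM, a transcript's share of the library's transcripts by number, scaled to a sum of 1000000, so a rise is a rise in share and the RNA content of an embryo is not known. The number of reads behind a value is unknown as well, and a listed 0 can be a missed estimate, since Tbp, a general transcription factor, was at 0 in 2 morulae. Genes with at least 1 TPM in at least 50% of the embryos of 1 stage were tested, which left 8148 of 23845. A gene that passed through only 1 stage had to be higher there, so its direction is no separate result. Differences are given as morula minus 4-cell on the log2(TPM + 1) scale, which understates the change of low genes. A gene was called where its Benjamini-Hochberg adjusted p from limma was under 0.05 over all tested genes and its log2 difference was at least 1 in size.

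The embryos of the 2 stages were apart on principal component 2 of their RNA (19.8% of variance) and overlapped on component 1 (33.1%). The stages also differed in how many genes were detected. Between 6303 and 10048 genes were above 0 TPM in a 4-cell embryo and between 6480 and 12239 in a morula, with means of 8359 ± 1098 (SD, n = 16) and 10299 ± 1411 (SD, n = 22; permutation test of 100000 resamples, two-sided, p = 0.00016, adjusted over 3 measures 0.00048). The ranges overlapped, and morula 15 was the lowest of its stage at 6480. Ribosomal protein genes held 26.9% ± 3.54 of the TPM at the 4-cell stage (SD, n = 16) and 24.5% ± 5.28 in morulae (SD, n = 22; permutation test, adjusted p = 0.194). The 10 most abundant genes of each embryo held 12.6% ± 2.42 (SD, n = 16) and 11.5% ± 3.00 (SD, n = 22; permutation test, adjusted p = 0.275), and neither difference passed the test.

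**Figure D1:**
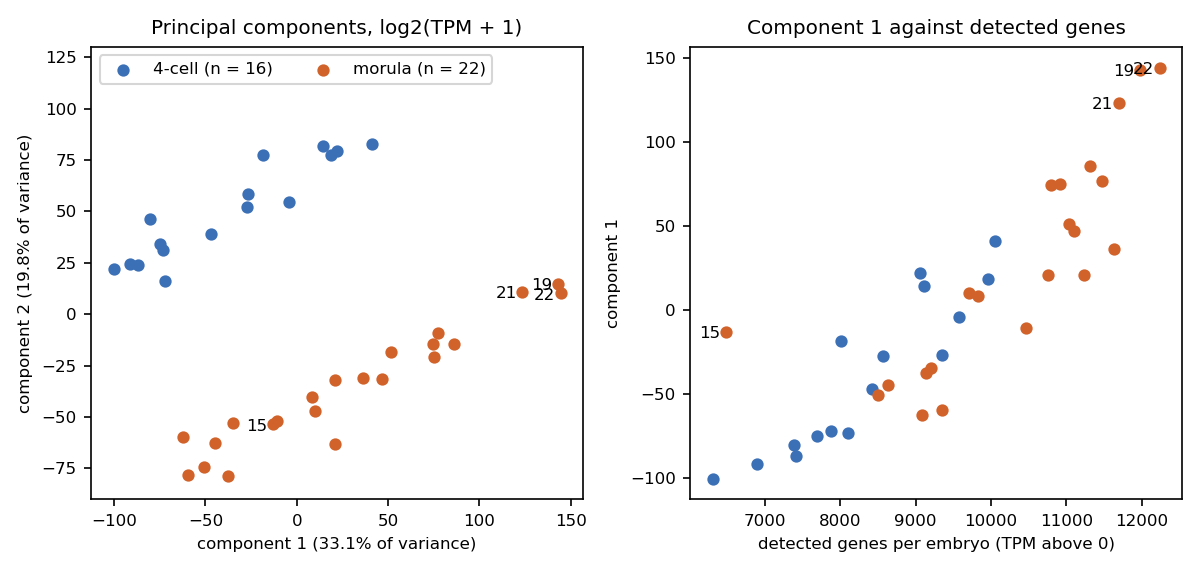
Principal components of log2(TPM + 1) over the tested genes in the 38 control-sired embryos (left; blue, 4-cell; orange, morula; 1 point per embryo) and component 1 against the number of detected genes (right). Component 2 separates the stages (16.1 to 82.6 at the 4-cell stage, -78.9 to 14.6 in morulae), component 1 spreads the embryos within each stage, and morulae 19, 21 and 22 lie at its high end.

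Among the morulae 3 libraries stood apart. Morulae 19, 21 and 22 had the most detected genes of all (11697 to 12239) and the highest levels of early trophectoderm genes. Cdx2 was between 215 and 226 TPM in these 3 morulae and between 1.25 and 113 TPM in the other 19. For Krt8 the ranges were 603 to 1024 TPM and 13.4 to 434 TPM. The labels put all 22 in a single group, and gene list counts are also given without the 3. On a scale that placed the mean 4-cell embryo of the heat-sired set at 0 and its mean morula at 1, built from 1566 genes that rose and 1245 that fell there, the control 4-cell embryos lay between -0.09 and 0.20 and the control morulae between 0.75 and 1.16. The 2 stages did not overlap on this scale, and no control embryo lay between them.

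Between the stages 1675 genes rose, 20.6% of those tested, and 932 fell, which is 11.4%. The median difference over all 8148 genes was 0.18, and 5541 genes were not called. The median 4-cell level of the rising genes was 0.835 TPM, under the 1 TPM of the filter. Many rises thus passed only by their morula level and had to be higher there, in the lists below as well. For the falling genes the median morula level was 3.53 TPM. A rise of at least 4 on the log2 scale was seen for 45 genes and a fall of at least 4 for 22. The stages did not overlap in a single embryo for 57 genes that were higher in morulae and for 57 that were lower, 0.7% of tested genes each. By median over embryos, the rising genes held 4.20% of the TPM at the 4-cell stage and 13.1% in morulae, while the falling genes went from 11.2% to 4.12%.

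The balance between rises and falls depended on the number of detected genes. With that number as a covariate, 792 genes rose (9.72%), 2395 fell (29.4%), and the median over all tested genes moved from 0.18 to -0.45. Among the 8 4-cell embryos and 8 morulae with similar numbers of detected genes, 717 rose (8.7% of 8242 tested) and 2978 fell (36.1%). In that fit 44 genes were called in the opposite direction to the fit of all 38. These 4-cell embryos had the most detected genes of their stage, and these morulae the fewest apart from morula 15. Cdx2 was between 1.25 and 20.6 TPM in these morulae and between 6.71 and 226 TPM in the others. Pou5f1 was between 394 and 1112 TPM in these 4-cell embryos and between 125 and 476 TPM in the others. The part of this choice of embryos in the calls was not tested. The share of calls that were rises was 64.3% in all 38 embryos, 24.9% with the covariate and 19.4% in the embryos of similar detection. Without morulae 19, 21 and 22 it was 53.5%, with 1314 rises (16.7%) and 1142 falls (14.5%). Library depth and the embryos' own RNA both set how many genes are detected, and in these values they cannot be told apart.

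**Figure D2:**
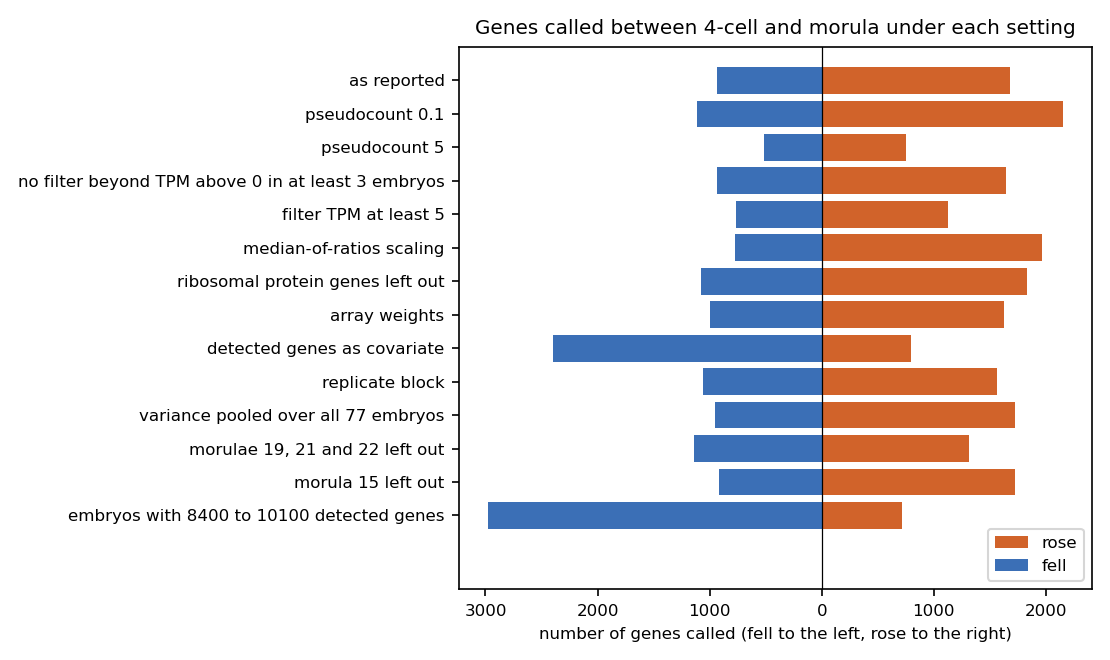
Number of genes called lower (blue, to the left) and higher (orange, to the right) in control morulae than in control 4-cell embryos under each setting; 1 bar pair per setting. Rises outnumber falls as reported (1675 and 932), while falls outnumber rises with detected genes as a covariate (2395 and 792) and in the 16 embryos of similar detection (2978 and 717). These 16 are the 4-cell embryos with the most detected genes and, apart from morula 15, the morulae with the fewest.

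The calls were then compared across fits. Of the 932 falls, 849 (91.1%) were called lower in all 3 fits (all embryos, the covariate and the embryos of similar detection). Of the 1675 rises, 540 (32.2%) were called higher in all 3. Against all tested genes these are 10.4% and 6.63%, and a gene is called kept below where it is among them. The median over the tested genes was 0.18 in all embryos, -0.45 with the covariate and -0.69 in similar detection. With all genes moved down, a fall was more readily kept than a rise, so kept is not an even check of both directions. For each gene list the counts of the other fits follow in the same order, rises and then falls, since the shares over all tested genes differ between fits. Each is to be read against those shares, and those of similar detection with the choice of embryos stated above.

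The 10 largest rises included an aldo-keto reductase, a glutathione peroxidase and a pair of epithelial keratins, and all 10 were kept. Akr1b8, an aldo-keto reductase, was between 0 and 10.0 TPM in the 4-cell embryos (median 0.99) and between 26.9 and 982 in the morulae (median 628). No morula overlapped a 4-cell embryo, and the log2 difference of 7.39 (SE 0.41, adjusted p = 1.28e-18) was the largest of the 8148. S100a11, a calcium-binding protein, went from 0 to 16.1 TPM (median 1.03) up to 186 to 473 TPM (median 288), by 6.68 on the log2 scale (SE 0.36, adjusted p = 1.06e-18). Krt8, the keratin that pairs with Krt18 in simple epithelia, rose from 0 to 13.3 TPM (median 0.19) to 13.4 to 1024 TPM (median 90.7), by 6.27 (SE 0.46, adjusted p = 1.54e-14). The ranges of Krt8 touch closely, and the 3 morulae that stood apart hold its upper end. The other members were Fam25c, Bmyc of the MYC family, the glutathione peroxidase Gpx2, the chloride channel protein Clic3, the prostaglandin E synthase Ptges, the cell surface proteoglycan Sdc4 and Krt18, with log2 differences of 5.60 to 6.46.

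The 10 largest falls included a pair of oocyte maturation genes and the transcription factor Klf17, and all 10 were kept too. B020004C17Rik was between 11.1 and 1845 TPM at the 4-cell stage (median 102.5) and between 0 and 5.51 TPM in morulae (median 0.09), a log2 difference of -6.28 (SE 0.40, adjusted p = 1.89e-16). Omt2a, an oocyte maturation gene, went from 40.8 to 282 TPM (median 79.1) down to 0 to 33.8 TPM (median 0.23), a difference of -5.53 (SE 0.37, adjusted p = 8.87e-16). Its neighbour Omt2b was between 106 and 726 TPM and then between 0 and 151 TPM, with a difference of -5.85. Omt2a and B020004C17Rik did not overlap between stages, whereas Omt2b did. Reads of near-identical genes such as this pair may be split between them, so their single values are less certain than their sum. The other 7 were Fam212a, the septin Septin1, the interferon-induced Ifitm1, Lbhd1, Klf17, Gm16381 and the lactate dehydrogenase subunit Ldhb, with differences between -5.41 and -4.47.

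Promoter stretches are shown for 4 genes that rose and 3 that fell, since they are the extremes of the change and Cdx2 is a defining regulator of the trophectoderm. Each is the 120 bases before a RefSeq transcript start on GRCm38.p6, written on the gene's own strand. For Fam25c and Omt2a that start, and the stretch with it, lies inside the gene's full RefSeq span. Capitals mark matches, on either strand, to any of 8 motifs. The TATA box was searched as TATAAA, and the site named for CCAAT by those letters. The GC box was searched as GGGCGG. For TEAD factors the letters were GGAATG. For factors of the GATA family they were AGATAA. The oocyte factor NOBOX was given TAATTG. The antioxidant element was written TGACNNNGC, with any base at N. ETS factors were given CCGGAAGT. None of the 8 patterns lies within another. A match says that the letters are there and is not a measured site.
Akr1b8: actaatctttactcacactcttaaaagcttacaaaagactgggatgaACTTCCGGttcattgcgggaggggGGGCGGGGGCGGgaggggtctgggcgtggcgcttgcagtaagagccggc
Krt8: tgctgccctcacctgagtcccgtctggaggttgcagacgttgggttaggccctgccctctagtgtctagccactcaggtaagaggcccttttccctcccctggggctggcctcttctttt
Fam25c: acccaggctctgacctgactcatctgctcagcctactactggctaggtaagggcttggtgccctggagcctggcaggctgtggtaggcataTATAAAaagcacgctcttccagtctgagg
Cdx2: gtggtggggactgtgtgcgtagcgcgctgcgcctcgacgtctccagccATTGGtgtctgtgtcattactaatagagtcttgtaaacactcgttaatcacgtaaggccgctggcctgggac
Omt2a: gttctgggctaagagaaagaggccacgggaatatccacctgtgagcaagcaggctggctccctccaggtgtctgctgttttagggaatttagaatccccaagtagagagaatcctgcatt
Omt2b: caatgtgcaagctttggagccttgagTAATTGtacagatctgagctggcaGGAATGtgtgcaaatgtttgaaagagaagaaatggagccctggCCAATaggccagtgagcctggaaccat
B020004C17Rik: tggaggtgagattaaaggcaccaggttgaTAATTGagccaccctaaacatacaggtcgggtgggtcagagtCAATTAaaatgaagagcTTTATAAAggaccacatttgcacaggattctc
The Fam25c stretch (chr14:34355394-34355513, minus strand) held a TATA box. That of B020004C17Rik (chr14:57015014-57015133, plus) held overlapping TATA box letters on both strands and 2 NOBOX matches. Akr1b8 (chr6:34354026-34354145, plus) held an ETS match and 2 adjoining GC boxes. Cdx2 (chr5:147307250-147307369, minus) held a CCAAT box, and Krt8 (chr15:102004343-102004462, minus) held none of the 8. Omt2b (chr9:78327910-78328029, plus) held a NOBOX, a TEAD and a CCAAT match, and its neighbour Omt2a (chr9:78314049-78314168, minus) held none.

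Across promoter windows of 300 bases (250 before the start and 50 after), the genes that rose had a lower median CpG content than genes not called. Windows were found for 6251 of the 8148 tested genes, some with more than 1. The median ratio of observed to expected CpG was 0.679 for rising genes, 0.600 for rises that were kept, 0.769 for falling genes and 0.804 for genes not called. ETS letters were in 2.38% of windows of kept rises, 6.86% of kept falls and 11.7% of genes not called, against 3.89% of all 32851 windows in the table. TEAD letters were in 17.2% of windows of kept rises, 11.9% of tested genes and 14.7% of all windows. For the TATA box the shares were 9.90%, 6.87% and 13.6%. NOBOX letters stood in 4.81% of windows of kept falls, 4.49% of tested genes and 8.00% of all windows. The CCAAT box was in 42.4% of windows of kept rises and 39.4% of tested genes, the GC box in 55.6% and 63.1%, GATA letters in 7.13% and 6.36%, and the antioxidant element in 11.3% and 14.8%. These shares are descriptions with no test, and motifs of few letters occur often without a bound factor.

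**Figure D3:**
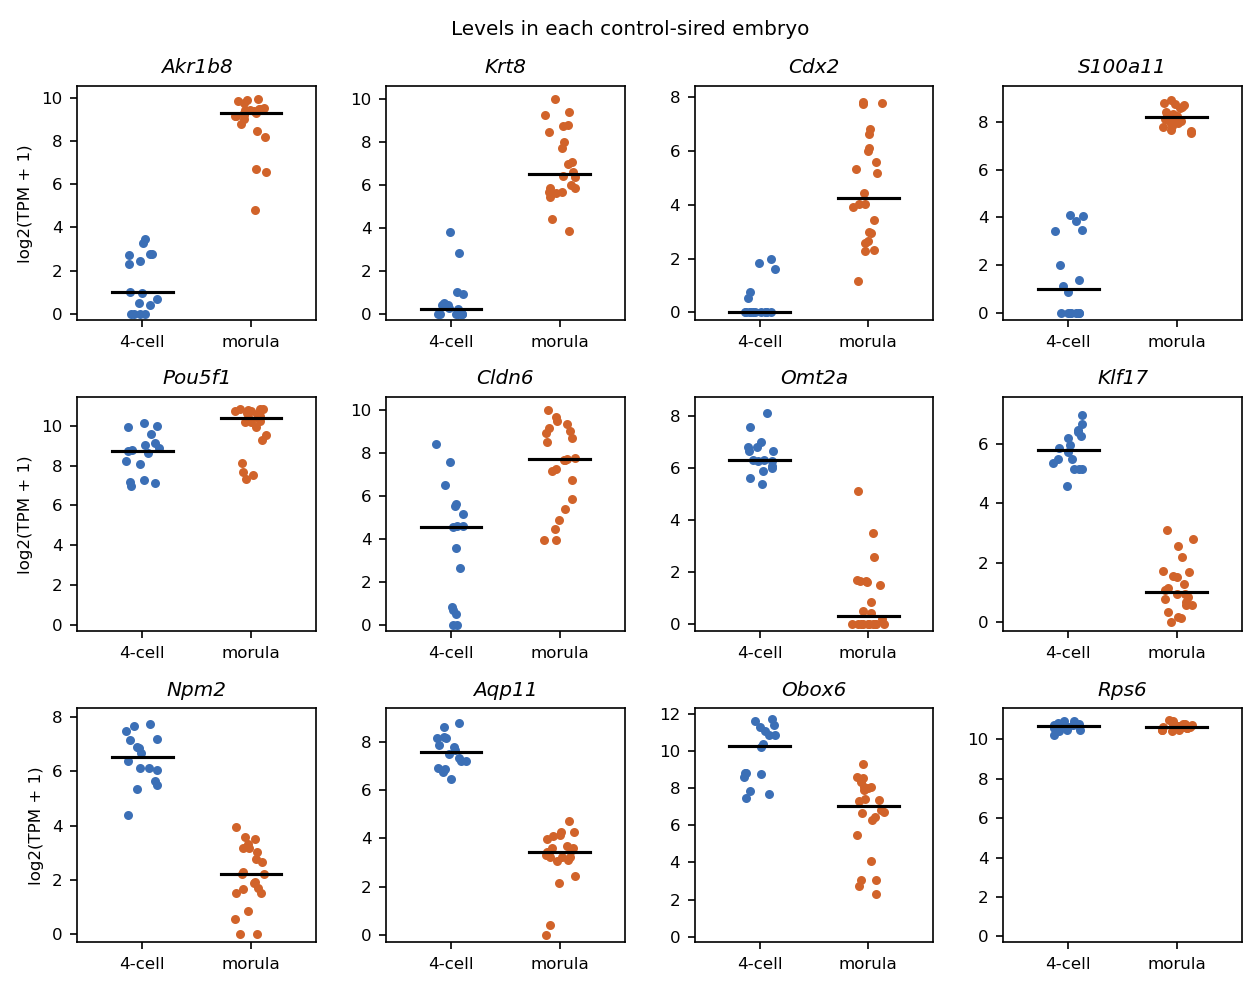
Level of 12 genes in each control-sired embryo (1 point per embryo; y axis, log2(TPM + 1); black line, median; blue, 4-cell, n = 16; orange, morula, n = 22). Akr1b8, Krt8 and S100a11 are higher in every morula than in any 4-cell embryo, Omt2a, Klf17, Npm2 and Aqp11 are lower in every morula, and Rps6 lies between 1186 and 2016 TPM over both stages.

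Regulators and products of the trophectoderm had the highest median difference of the 32 lists examined. The members were chosen with earlier results of these data known, so this rank is a description and no test. Of 20 tested members 15 rose and 1 fell, with a median of 3.56 beside 0.18 for all tested genes, and 13 rises and the fall were kept. A member that passed the filter only by its morula level, such as Cdx2 (median 0 at the 4-cell stage), had to be higher there. The covariate and similar detection each gave 13 rises and 4 falls, and the set without the 3 morulae that stood apart 15 and 2. Gata3, a transcription factor that drives trophectoderm genes beside CDX2, was between 0 and 2.83 TPM at the 4-cell stage (median 0.59) and between 12.3 and 281 TPM in morulae (median 49.6). It did not overlap, and the difference was 4.97 (SE 0.34, adjusted p = 1.78e-15). Cdx2 was between 0 and 2.94 TPM (median 0) and then between 1.25 and 226 TPM (median 18.1), a difference of 4.21 (SE 0.51, adjusted p = 6.03e-09). It overlapped at the low end, and without the 3 morulae that stood apart its difference was 3.71. The endocytic receptor Lrp2 (2.36), the annexin partner S100a10 (5.40) and the pair Krt8 and Krt18 rose as well, the first 2 with no overlap. Hand1, a regulator of later giant cells, went the other way, from 1.66 to 298 TPM (median 31.4) down to 0 to 42.3 TPM (median 10.2), a difference of -1.93 (SE 0.57, adjusted p = 0.00538). Tfap2c and Klf5, which act upstream of Cdx2, differed by -0.19 (SE 0.46) and -0.62 (SE 0.42) and did not pass in all 38 embryos. Both were called lower with the covariate (-1.73 and -1.96) and in embryos of similar detection (-2.33 and -2.69). In whole embryos, more cells with a transcript and more transcript per cell cannot be told apart.

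Of 20 tested genes of adhesion and tight junctions 11 rose and 0 fell, with a median of 1.04, and none of the rises was kept. The covariate gave 2 rises and 1 fall, similar detection 0 and 2 of 18 (median 0.07), and the set without morulae 19, 21 and 22 gave 7 and 0 of 18. The adhesion molecule Epcam was between 5.78 and 163 TPM (median 54.7) and then between 39.1 and 674 TPM (median 323), a difference of 2.50 (SE 0.35, adjusted p = 1.8e-07). The claudin Cldn6 was between 0 and 340 TPM (median 22.7) and then between 14.3 and 1014 TPM (median 206), a difference of 3.62 (SE 0.71, adjusted p = 5.3e-05). Both overlapped between stages. In embryos of similar detection the difference was 0.91 for Epcam and -0.44 for Cldn6, and neither passed. The desmosome protein Pkp2 (1.61) and the claudin Cldn7 (1.69) rose in the fit of all 38 embryos and had differences of 0.91 and 0.10 in the embryos of similar detection. Cdh1, the E-cadherin of compaction, had a difference of 0.99 (SE 0.29), just under the fold limit, and Ctnnb1 one of 0.40 (SE 0.36). F11r, a junctional adhesion molecule, had one of -0.40 (SE 0.45) and was called lower with the covariate (-1.96) and in similar detection (-2.78).

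Of 19 polarity genes 4 rose and 2 fell, with a median of 0.69, near the shares over all tested genes (20.6% and 11.4%). With the covariate 2 rose and 4 fell, in similar detection 1 and 4, and without the 3 morulae 4 and 3 of 18. Ezr, which links actin to the apical membrane and is an early apical protein, rose from 0 to 1.05 TPM (median 0) to 0 to 33.4 TPM (median 2.91), by 1.86 (SE 0.34, adjusted p = 2.02e-05), the only rise that was kept. The others were the PAR complex member Pard6b (1.57), the ezrin-binding Slc9a3r1 (2.40) and the myosin light chain Myl12b (1.29). Crb3, an apical membrane protein, fell from 140 to 592 TPM (median 296) to 61.0 to 255 TPM (median 117), by a difference of -1.27 (SE 0.20, adjusted p = 2.49e-06), and the kinase Stk11 by -1.03, and both falls were kept. The atypical protein kinase C gene Prkcz (0.37, SE 0.25), Cdc42 (0.75, SE 0.18) and Rhoa (-0.16, SE 0.49) did not pass both limits, and Rhoa was called lower with the covariate (-1.95) and in similar detection (-2.79).

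Of 23 genes of actin and its binding proteins 15 rose and 0 fell, with a median of 1.89, and 7 of the rises were kept. The covariate gave 11 rises and 1 fall, similar detection 8 and 1, and the set without the 3 morulae 15 and 0. Tmsb10, which binds actin monomers, was between 36.8 and 182 TPM (median 106) and then between 277 and 566 TPM (median 418). Tropomyosin Tpm1 was between 0 and 19.3 TPM (median 5.19) and then between 19.9 and 102 TPM (median 44.8). Neither gene overlapped between stages, and the differences were 2.15 (SE 0.19, adjusted p = 1.34e-12) and 3.39 (SE 0.33, adjusted p = 2.75e-11). Cytoplasmic gamma actin, Actg1, rose by 3.88 (SE 0.54) and was not kept (1.04 in embryos of similar detection). The ARP2/3 subunit Arpc3 was between 298 and 693 TPM and then between 302 and 530 TPM, with a difference of -0.01 (SE 0.11), and the monomer binder Pfn1 differed by 0.49 (SE 0.21) and was called higher in similar detection alone (1.26).

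Of 14 Hippo pathway genes 1 rose and 1 fell in all 38 embryos, with a median of 0.08. With the covariate 1 rose and 6 fell (median -1.03), in similar detection 1 and 7 of 12 (median -1.23), and without the 3 morulae 1 and 2 of 13. Ctgf, a target of YAP1 with TEAD factors in many cells, went from 0 to 5.13 TPM (median 0) to 1.25 to 35.0 TPM (median 6.14), a rise of 2.71 (SE 0.33, adjusted p = 7.27e-09). Tead4 itself went from 8.30 to 196 TPM (median 43.6) to 1.75 to 67.0 TPM (median 33.7), a fall with a difference of -1.29 (SE 0.46, adjusted p = 0.0207). Both calls were kept, and the stages overlapped in both. Yap1 differed by -0.59 (SE 0.23) and its relative Wwtr1 by 0.28 (SE 0.48). Wwtr1 was called lower with the covariate (-1.24) and in similar detection (-2.34), and Yap1 in the latter (-1.28).

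Of 22 pluripotency genes 7 rose and 5 fell, with a median of -0.17. The covariate gave 5 rises and 11 falls, similar detection 5 and 13, and the set without the 3 morulae 7 and 7. Nanog, a factor of the inner cell mass, was between 0 and 16.7 TPM (median 4.84) and then between 12.8 and 297 TPM (median 63.6), a kept rise of 3.62 (SE 0.41, adjusted p = 1.75e-09). Zfp42 (Rex1), with 9.87 to 69.1 TPM (median 28.9) and then 69.9 to 255 TPM (median 120), did not overlap and rose by 1.92, and the TGF-beta family ligand Gdf3 rose by 3.76. Pou5f1 (Oct4) was between 125 and 1112 TPM (median 427) and then between 158 and 1816 TPM (median 1306), with a rise of 1.28 (SE 0.34, adjusted p = 0.00213) that was not kept and was -0.66 in embryos of similar detection. The 5 falls were Klf17, Klf2, Fgf4, Prdm14 and Nr5a2, and all were kept. Klf17 was between 23.3 and 125 TPM (median 55.3) and then between 0 and 7.65 TPM (median 1.04), with no overlap and a difference of -4.59 (SE 0.28, adjusted p = 2.23e-17). Klf2 did not overlap either (-2.84). Sox2, the earliest marker of inner cells, was listed at 0 in all 16 4-cell embryos and was above 0 in 16 of 22 morulae, with a median of 0.60 TPM that left it under the filter. Sall4 differed by -0.23 (SE 0.30) and was called lower with the covariate (-1.22) and in similar detection (-1.64).

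Genes of the primitive endoderm, the later yolk sac lineage, gave 3 rises and 1 fall among 10, with a median of 0.75. With the covariate the counts were 3 and 1, in similar detection 2 and 1 of 8, and without the 3 morulae 2 and 1 of 7. The rises were Dab2 (3.26), an endocytic adaptor with no overlap between stages, the matrix protein Sparc (2.67) and the laminin chain Lamb1 (1.06), and the first 2 were kept. Gata4 fell from 0.84 to 21.8 TPM (median 5.47) to 0 to 1.01 TPM (median 0), a kept difference of -2.47 (SE 0.24, adjusted p = 4.64e-11). Gata6, which acts beside it in that lineage, was between 0 and 63.6 TPM (median 13.3) and then between 8.51 and 43.3 TPM (median 18.7), a difference of 0.70 (SE 0.37) that did not pass.

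Of 10 genes for the fluid transport that later fills the blastocyst 5 rose and 3 fell, with a median of 1.23. The covariate gave 1 rise and 4 falls, similar detection 0 and 4, and the set without the 3 morulae 5 and 4. The rises included the sodium pump subunit Atp1b1 (2.65) and the water channel Aqp3 (3.16), and none of the 5 was kept. All 3 falls were kept. The intracellular water channel Aqp11 was between 87.1 and 440 TPM (median 191) and then between 0 and 25.3 TPM (median 9.76), with no overlap and a difference of -4.37 (SE 0.32, adjusted p = 1.17e-14). The pump subunit Atp1b3 had a difference of -1.42 and the sodium-potassium-chloride carrier Slc12a2 one of -1.97. Among sugar and amino acid carriers 6 of 14 rose and 0 fell, with a median of 0.94. With the covariate 2 rose and 2 fell, in similar detection 2 and 5 of 12, and without the 3 morulae 3 and 1 of 13. The glucose carriers Slc2a1 (3.21, from a median of 0 to 4.90 TPM) and Slc2a3 (2.33, from 0.43 to 7.92 TPM) were the 2 kept rises. The ADP/ATP carrier Slc25a5 rose by 1.57 in all embryos and had -0.29 in those of similar detection.

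Of 26 glutathione genes, targets of the transcription factor NRF2 and aldo-keto reductases, 17 rose and 0 fell. Their median was 1.29, and 8 of the rises were kept. The covariate gave 10 rises and 2 falls, similar detection 8 and 6 of 24, and the set without the 3 morulae 16 and 1. Beside Akr1b8, thioredoxin Txn1 was between 37.5 and 441 TPM (median 140) and then between 408 and 1889 TPM (median 932), a rise of 2.70 (SE 0.23, adjusted p = 1.34e-12). The glutathione transferase Gstp1 was between 3.89 and 255 TPM (median 76.8) and then between 175 and 1264 TPM (median 556), a rise of 3.01 (SE 0.31). Haem oxygenase Hmox1 was between 0 and 6.73 TPM (median 0) and then between 0.31 and 193 TPM (median 24.6), a rise of 4.33 (SE 0.47). All 3 were kept with slight overlap between stages. Members that did not pass included Akr1a1 (0.07, SE 0.32) and Gstm1 (0.32, SE 0.36), both called lower in similar detection (-1.38 and -1.33).

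Genes of pyruvate entry and the TCA cycle gave 15 rises and 1 fall among 29, with a median of 1.07, and none of these 16 calls was kept. The covariate gave 3 rises and 4 falls, similar detection 1 and 8 of 27, and the set without the 3 morulae 8 and 1 of 28. The cytosolic malate dehydrogenase Mdh1 was between 0 and 25.9 TPM (median 9.67) and then between 0.96 and 183 TPM (median 72.8), a rise of 2.75 (SE 0.51, adjusted p = 2.79e-05) and a difference of 0.00 in embryos of similar detection. Sdhb, a succinate dehydrogenase subunit, rose by 1.31 (SE 0.19) and had 0.96 there. Mpc2, a subunit of the mitochondrial pyruvate carrier, fell from 649 to 1588 TPM (median 999) to 93.8 to 726 TPM (median 311), by a difference of -1.58 (SE 0.19, adjusted p = 8.12e-09).

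Serine, folate and nucleotide synthesis gave 6 rises, none kept, and 4 falls, all kept, among 29 with a median of 0.23, near the shares over all tested genes. With the covariate 2 rose and 14 fell, in similar detection 0 and 17, and without the 3 morulae 4 and 4. The falls were the S-adenosylmethionine synthase subunits Mat2a (-1.19) and Mat2b (-1.81) and the purine enzymes Atic (-1.10) and Impdh2 (-1.01). The rises included adenosine deaminase Ada (2.94) and Ahcy (2.32), which clears S-adenosylhomocysteine. Of 12 genes of polyamine synthesis 0 rose and 2 fell (median -0.52), Amd1 (-1.07) and the antizyme inhibitor Azin2 (-1.55), the first kept, beside 6 falls with the covariate, 9 in similar detection and 2 without the 3 morulae. Lysosome and endocytosis genes gave 9 rises and 3 falls among 26 with a median of 0.38. With the covariate 3 rose and 11 fell, in similar detection 3 and 13 of 24, and without the 3 morulae 6 and 5. The 3 falls were the cathepsins Ctsl (-2.31), Ctsb (-1.24) and Ctsz (-1.19), and all were kept. Of the rises, the receptor Lrp2, its adaptor Dab2 and the recycling GTPase Rab11a (1.14) were kept.

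Of 30 nucleolar and RNA polymerase I genes 0 rose and 8 fell, with a median of -0.53, and 5 falls were kept. The covariate gave 18 falls, similar detection 19 and the set without the 3 morulae 10, with 0 rises in each. Rrn3, the factor that loads RNA polymerase I, was between 19.2 and 93.3 TPM (median 46.7) and then between 3.23 and 41.1 TPM (median 10.6), a difference of -2.0 (SE 0.28, adjusted p = 1.29e-07). The nucleolar GTPase gene Gnl3 (-1.33, SE 0.15) and the polymerase subunit Polr1c (-1.27, SE 0.21) fell too. Of 84 ribosomal protein genes 82 were not called, with 1 rise (Rpl22l1, 1.06), 1 fall (Rpl3l, -1.12) and a median of -0.09. With the covariate 1 rose and 4 fell, in similar detection 2 and 5, and without the 3 morulae 1 and 1. Aminoacyl-tRNA synthetases and partners gave 7 rises of 22 and 0 falls (median 0.86), of which the threonyl enzyme Tars (1.49) was kept. The covariate gave 2 rises and 2 falls, similar detection 1 and 4, and the set without the 3 morulae 3 and 0.

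Proteasome genes gave 10 rises and 1 fall among 36 with a median of 0.71. With the covariate 3 rose and 4 fell, in similar detection 3 and 14, and without the 3 morulae 5 and 1. Psmb3 was between 933 and 1573 TPM (median 1298) and then between 2054 and 6007 TPM (median 3051), with no overlap and a kept rise of 1.30 (SE 0.12, adjusted p = 9.41e-12). The immunoproteasome subunit Psmb9 was the other kept rise (3.58, SE 0.37), and Psmb10, of the same inducible set, was the fall (-1.47, SE 0.29), which was not kept. Of the 8 subunits of the CCT chaperonin, which folds actin and tubulin, 0 were called in all 38 embryos, with a median of 0.62, and 0 without the 3 morulae. With the covariate 5 of the 8 fell (median -1.10), and in similar detection 5 of the 8 fell (median -1.26). In all 38 embryos, with limma at an unadjusted p under 0.05, 2 of the 8 were higher and 0 lower in morulae. At that limit, with the variance pooled over all 77 embryos, 2678 of 8689 genes were higher and 1850 lower. The share of higher genes in this list was not above that of all genes. Cct6a had a difference of 0.49 (SE 0.22).

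RNAs that the oocyte makes for secretion and the egg coat fell in every tested case, 7 of 7, all kept, with a median of -2.14, and without the 3 morulae 7 fell as well. Beside Omt2a and Omt2b, Zp3, a zona pellucida protein, was between 3.30 and 183 TPM (median 34.1) and then between 0 and 21.2 TPM (median 8.51), a difference of -2.14 (SE 0.36, adjusted p = 4.92e-06). Gdf9, an oocyte growth factor, was between 0 and 27.3 TPM (median 7.62) and then between 0 and 5.01 TPM (median 0), a difference of -2.25 (SE 0.39). The stages overlapped in both. Another 6 of the 13 members in the file were too low to test, and a gene that passed only by its 4-cell level had to be higher there. Oocyte RNA-binding and mRNA decay genes gave 0 rises and 2 falls among 7 (median -0.24), Btg4, the adaptor that brings a deadenylase to maternal mRNA (-2.74), and the deadenylase subunit Cnot8 (-1.68), both kept, and each of the other fits gave 0 rises and 3 falls. The same limit of the filter holds for this list, which had 25 members in the file.

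In the subcortical maternal complex and Nlrp list 3 rose and 1 fell of 7, with a median of -0.91. With the covariate 3 rose and 4 fell, in similar detection 1 and 4, and without the 3 morulae 3 and 2. Khdc3 (Filia) was between 8.77 and 417 TPM (median 80.3) and then between 35.9 and 2311 TPM (median 939), a rise of 2.96 (SE 0.49, adjusted p = 3.81e-06) that was not kept. Ooep, its partner in the complex, rose by 1.59 (SE 0.40) and was kept, Nlrp4c rose by 1.61, and Zbed3 fell by a kept difference of -1.76. Oocyte chromatin and transcription regulators gave 2 rises and 2 falls among 16 (median -0.35). The covariate gave 1 rise and 5 falls, similar detection 0 and 5, and the set without the 3 morulae 1 and 3. Npm2, the histone chaperone that opens sperm chromatin, was between 20.0 and 211 TPM (median 90.9) and then between 0 and 14.3 TPM (median 3.64), with no overlap and a kept difference of -4.29 (SE 0.35, adjusted p = 1.92e-13). The remodeller Smarca4 (-1.30) also fell, and the demethylation enzyme Tet2 (2.00) and methyltransferase Dnmt3b (1.22) rose without being kept.

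Of 7 genes of the 2-cell program 4 fell, all kept, and 1 rose, with a median of -1.34. The list had 26 members in the file, so most were too low to test. A member that passed only by its 4-cell level, such as Obox5 (median 0 in morulae), had to be higher there. The covariate and similar detection each gave 0 rises and 5 falls, and the set without the 3 morulae 1 and 4. Obox6, of the Obox homeobox family, was between 175 and 3329 TPM (median 1240) and then between 3.98 and 632 TPM (median 132), a difference of -3.35 (SE 0.58, adjusted p = 8.06e-06). Obox5 (-2.85), Tdpoz4 (-2.58) and Sp110 (-1.34) were the other falls and Zfp809 (1.52) the rise. Obox genes share sequence, so their reads may be split. Meiotic and M-phase regulators gave 5 kept falls and 1 rise among 21 (median -0.48). With the covariate 17 of the 21 fell (median -2.03), in similar detection 17 (median -2.47) and without the 3 morulae 8, with 0 rises in each. Gpr3, the receptor that keeps oocytes arrested through cyclic AMP, was between 3.71 and 45.0 TPM (median 14.8) and then between 0 and 1.09 TPM (median 0), with no overlap and a difference of -3.78 (SE 0.21, adjusted p = 1.75e-18). Spdya (-2.16), Aurkc (-1.86), Cdc25a (-1.32) and Cdc25b (-1.24) followed, and Fzr1 rose (1.33). Mitotic genes such as Plk1 (0.01, SE 0.46) and Cdc20 (-0.16, SE 0.53) did not pass in all 38 embryos. Both were called lower with the covariate (-1.61 and -2.25) and in similar detection (-1.87 and -3.23).

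Replication licensing genes gave 6 rises and 1 fall among 22 with a median of -0.30. The covariate gave 2 rises and 7 falls, similar detection 2 and 9 of 21, and the set without the 3 morulae 4 and 4 of 21. Gins2 was between 0 and 36.7 TPM (median 0.11) and then between 6.29 and 97.5 TPM (median 34.6), a kept rise of 3.69 (SE 0.45, adjusted p = 9.94e-09), while its partner Gins1 fell by a kept difference of -1.10 (SE 0.20). Both are subunits of one replicative helicase complex. Cyclins and CDK regulators gave 2 rises and 0 falls among 12 (median 0.19). With the covariate 1 rose and 5 fell, in similar detection 1 and 6 of 11, and without the 3 morulae 1 and 1. The CDK inhibitor Cdkn2c had 0 TPM in each of the 16 4-cell embryos and 0 to 11.7 TPM in morulae (median 2.67), and the cyclin Ccnd3 rose by 1.63 without being kept. Signalling genes gave 4 rises and 2 falls among 10 (median 0.06). The covariate gave 2 rises and 4 falls, similar detection 2 and 4 of 9, and the set without the 3 morulae 2 and 3 of 8. Pdgfa, a ligand of the primitive endoderm receptor, was between 0 and 122 TPM (median 19.5) and then between 31.1 and 223 TPM (median 94.8), a kept rise of 2.85 (SE 0.50). Wnt7b, listed at 0 in all 4-cell embryos (median 1.99 TPM in morulae), was kept as well, whereas Bmp4 (1.05) and Erbb2 (1.10) were not. Fgf4, an inner cell mass ligand, was between 3.00 and 36.5 TPM (median 15.3) and then between 0 and 7.43 TPM (median 1.70), a difference of -2.48 (SE 0.33), and the Notch ligand Dll3 fell by a difference of -1.29, both kept.

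**Figure D4:**
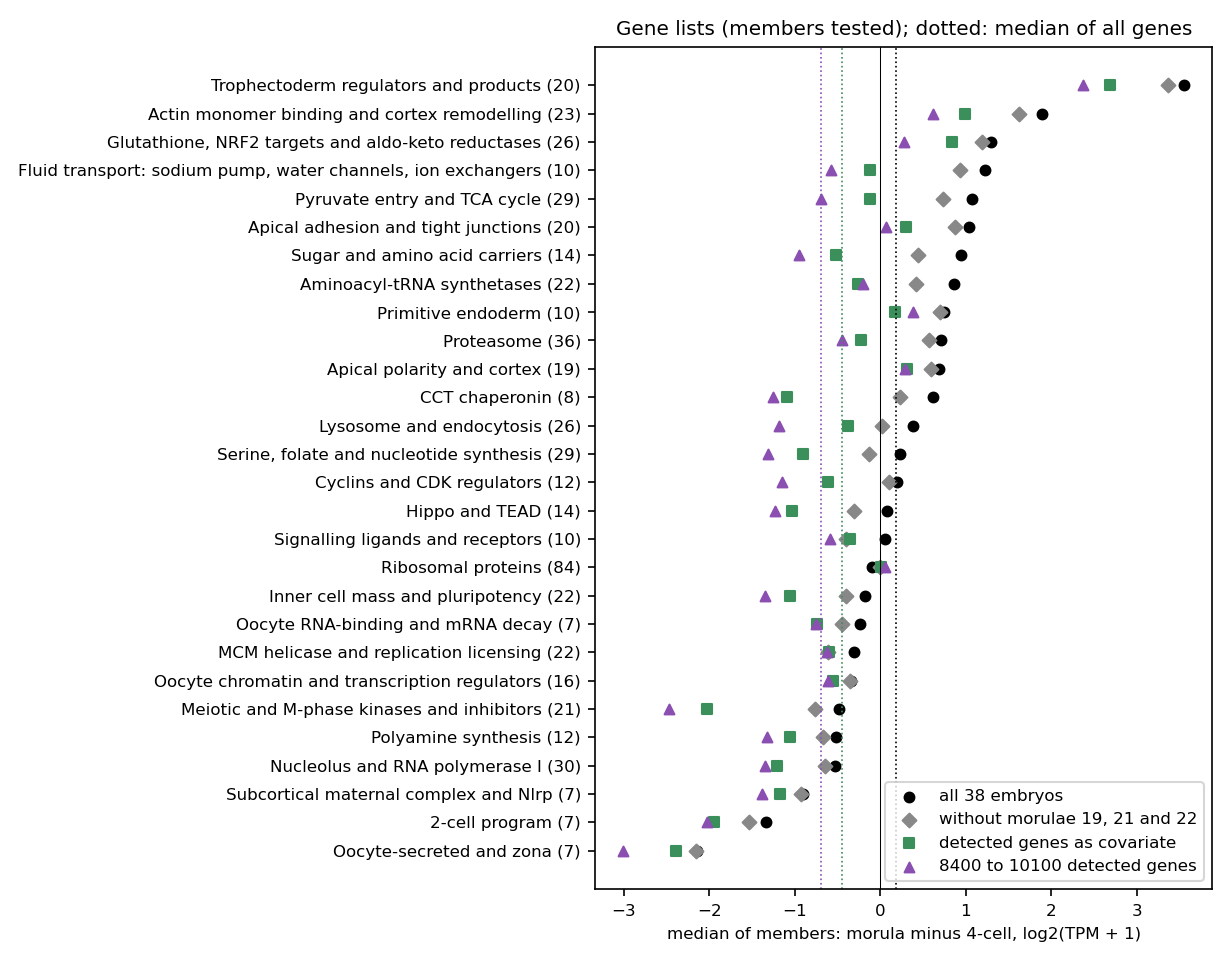
Median log2(TPM + 1) difference, morula minus 4-cell, over the tested members of each list with at least 5 (number in parentheses), in all 38 embryos (black), without morulae 19, 21 and 22 (grey), with detected genes as a covariate (green) and in embryos of similar detection (purple). Dotted lines are the medians of all tested genes (0.18, -0.45 and -0.69), and the trophectoderm list (3.56, 2.69 and 2.37) lies far above them while the oocyte-secreted list (-2.14, -2.39 and -3.0) lies far below. The lists were chosen with earlier results of these data known.

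Markers of other cells were mostly low or absent, with globin genes as the main exception. Of 12 cumulus and granulosa genes 7 were at 0 in all 38 embryos, and their summed level was 0 to 2.67 TPM per 4-cell embryo and 0 to 1.23 TPM per morula. Male germ cell markers summed to 0 to 42.9 TPM and 0.73 to 17.4 TPM, with 4 of 12 at 0 throughout, and of 2 tested Ldhc fell (-1.64). Among 9 blood and endothelial markers the summed level was 54.6 to 972 TPM and 6.64 to 259 TPM. The member of the highest median was the alpha globin gene Hba-a2, at 30.9 to 962 TPM (median 124) and then 0 to 160 TPM (median 35.3), a kept difference of -2.13 (SE 0.44, adjusted p = 0.000135). The beta globins had medians of 0 at both stages, with Hbb-bs at up to 256 TPM in 5 4-cell embryos and at 85.1 TPM in 1 morula and Hbb-bt at 13.2 TPM in 1 morula. Ptprc was 0 in all embryos, and Cd74 rose (1.77) without being kept. The part of other cells in these globin values was not tested.

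Genes that switched on or off were counted by the embryos in which they were detected. Of the 23845 genes in the file, 483 were at 0 in at least 75% of 4-cell embryos and above 0 in at least 75% of morulae. The reverse held for 27 of the 23845. Among the 8148 tested genes the counts were 308 and 24. More genes were detected in morulae on average, and the part of this in these counts was not tested. Alox5ap, which serves leukotriene synthesis, was above 0 in 3 of 16 4-cell embryos (at most 0.85 TPM) and in 22 of 22 morulae (15.4 to 118 TPM). Nppb, a natriuretic peptide, was above 0 in 3 of 16 and 21 of 22, and the secreted Egfl7 in 4 of 16 and 22 of 22. In the other direction, Btg4 was above 0 in 13 of 16 and 1 of 22, Obox5 in 13 and 2, Gpr3 in 16 and 5, Gm4850 in 14 and 4, and Glod5 in 12 and 5.

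The most abundant RNAs changed little in kind, since 42 of the 50 highest by mean were shared by both stages and 28 of the 50 at each stage encode ribosomal proteins. Rpl41 was first at both stages, with medians of 19881 and 14594 TPM and a difference of -0.69 (SE 0.18). Dppa3 (Stella), a maternal factor that guards DNA methylation, had medians of 17979 and 12661 TPM and a difference of -0.50 (SE 0.14). Of this top group 2 were called, Gm11517, with medians of 11304 and 3724 TPM (-1.49, SE 0.20), and the ferritin light chain Ftl1, with 2949 and 9770 TPM (1.98, SE 0.24), and both were kept. Among genes of at least 50 TPM median at both stages, Rps6 had the 95% interval of the difference that lay closest to 0, at 1186 to 1937 TPM (median 1616) and then 1373 to 2016 TPM (median 1580), with a difference of 0.00 (SE 0.07). Erh, Rpl14, Arpc3, Rpl12 and Rps26 followed, with differences between -0.02 and 0.02.

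The same change was measured in the heat-sired embryos, which share no library with the control embryos. Over the same 8148 genes 1527 rose (18.7%) and 1182 fell (14.5%). Of the 1675 control rises 1219 (72.8%) were called higher there and 1660 had the same sign, and of the 932 falls 781 (83.8%) were called lower and 928 had the same sign. No gene was called in opposite directions. Detection ran higher in morulae there too, with 6961 to 10274 genes above 0 TPM in heat-sired 4-cell embryos and 9026 to 12506 in heat-sired morulae. Detected genes were no covariate in that fit, so the agreement does not settle the rises that were not kept. Read from the other side, the shared genes were 79.8% of the heat-sired rises and 66.1% of the heat-sired falls. The median difference of the control rises was 1.57 in control and 1.40 in heat-sired embryos, and that of the falls was -1.49 and -1.54. Akr1b8 had 7.39 and 7.16, Krt8 6.27 and 6.23, Cdx2 4.21 and 4.85, Omt2b -5.85 and -6.75 and Klf17 -4.59 and -5.16.

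**Figure D5:**
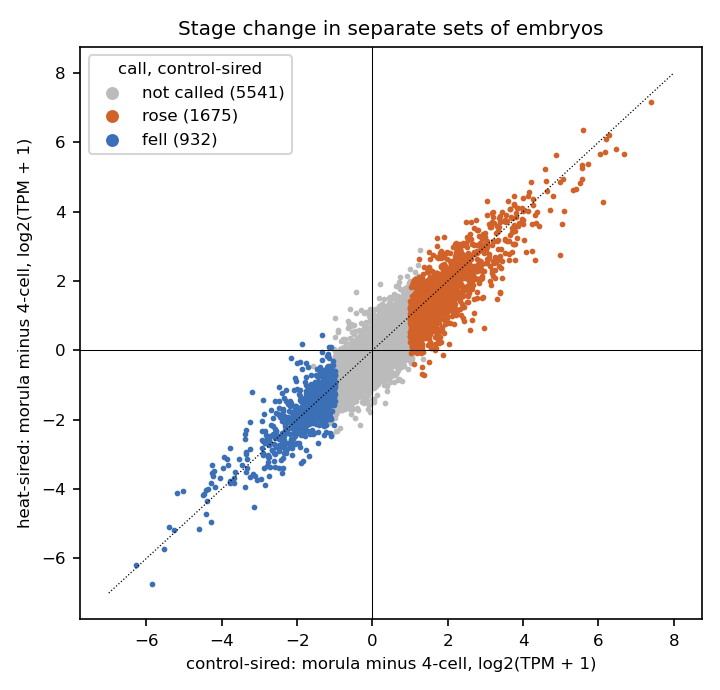
Morula minus 4-cell difference in log2(TPM + 1) for each of the 8148 tested genes in control-sired (x axis, 38 embryos) and heat-sired embryos (y axis, 39 embryos), coloured by the call in control-sired embryos (orange, 1675 rose; blue, 932 fell; grey, 5541 not called). Genes lie along the dotted line of equal change, and 1660 of the orange and 928 of the blue points have the same sign in both sets.

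Whether the stage change differed with paternal treatment was tested as an interaction over all 77 embryos in limma. Of 8689 genes tested, 0 passed (0%), 458 had an unadjusted p under 0.05, and the smallest adjusted p was 0.199. The smallest p-values belonged to Ccdc101 (-1.38 in control and -0.47 in heat-sired embryos), Ankrd24 (-0.58 and 1.20), Fdx1l (-0.10 and 1.06), Mms19 (0.69 and -0.84) and Xaf1 (0.71 and -0.84). With detected genes as a covariate 0 passed as well, with 635 at an unadjusted p under 0.05. A test that finds no gene does not show that the change was equal.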

How the data were processed

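Polyadenylated RNA of single embryos was isolated on RNA Clean XP beads and made into Nextera XT libraries, per the labels' protocols. The authors deposited TPM for 23845 genes, and the submitters' processing notes name Trimmomatic, Bowtie2, RSEM and mm10 without roles or versions. TPM keeps no depth, strand use in counting is not stated, and zeros may be missed estimates, so medians are given. Of the symbols, 22552 matched RefSeq (GRCm38.p6) as current and 1175 as older names.

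From these values log2(TPM + 1) was fitted in R 4.3.3 with limma 3.58.1, with a mean-variance trend, two-sided, morula minus 4-cell. Benjamini-Hochberg adjustment ran over all tested genes, the script was tested on simulated data, and single measures were compared with permutation tests in scipy 1.17.1. Alternatives changed the pseudocount, filter, scaling, weights, covariate and embryos. The 32 gene lists and the members were chosen with earlier results of these data known. Named genes are the 10 largest changes each way, up to 8 most abundant per stage, up to 5 switched each way, the 6 steadiest, up to 4 list members of smallest p and up to 3 of smallest change, the interaction's 5 smallest p and a fixed set of 13. Members behind counts of 5 or fewer outside this rule, and Tbp, were named after their values were seen. Sperm small RNA was not used here.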

Additional observations from a re-analysis of the deposited data

How the results depend on the processing

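The counts of rises and falls stayed within 1.5 times the reported 1675 and 932 under 10 of 13 settings. A pseudocount of 5 gave 754 rises and 512 falls, detected genes as a covariate gave 792 and 2395, and embryos of similar detection gave 717 and 2978. The settings without morulae 19, 21 and 22, without morula 15, and with embryos of similar detection were chosen after seeing the data. Median-of-ratios scaling moved the median of all tested genes from 0.18 to 0.31 (1967 rises, 774 falls). Replicate numbers did not pair embryos: of 16 same-numbered pairs 4 had a correlation of deviations above 0.1 (range -0.29 to 0.23), 1 4-cell embryo correlated best with its own number, and with the replicate block 1561 rose and 1055 fell. Among the tested genes named, signs turned for 11 with the covariate and for 18 in embryos of similar detection, of which 3 and 10 were called in the reported fit or the alternative. With the covariate these were Ccnd3 (-0.44), Plk1 (-1.61) and Wwtr1 (-1.24). In embryos of similar detection they were Akr1a1 (-1.38), Ccnd3 (-1.15), Cldn6 (-0.44), Fzr1 (-0.52), Gstm1 (-1.33), Mdh1 (-0.0013), Plk1 (-1.87), Pou5f1 (-0.66), Slc25a5 (-0.29) and Wwtr1 (-2.34). The cause was not tested. Of the 131 named genes that were called, 25 lost their call with a pseudocount of 5 and 16 with the covariate, and 28 of the 128 that could be tested lost it in embryos of similar detection. The difference in detected genes was 846 (permutation test, p = 0.0135) where detection meant at least 1 TPM. A planned exclusion of embryos with few detected genes left out 0, so it has no value. Depth is unknown, so low values have no interval.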

Other observations

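Among genes of at least 10 TPM median, the small nucleolar RNA Snora47 had the widest spread at the 4-cell stage, from 0 to 1398 TPM (median 163), with a standard deviation of 3.74 on the log2(TPM + 1) scale, and 3.14 in morulae. The median standard deviation over tested genes was 1.02 at the 4-cell stage, 0.97 in morulae and 0.81 in the 19 morulae without 19, 21 and 22.

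Chromosome 13 had the highest share of rising genes, 86 of 300 tested (28.7%), and chromosome 14 the lowest, 39 of 263 (14.8%). On the X chromosome 53 of 245 rose (21.6%), near the 20.6% over all tested genes. In all control embryos, with the covariate and in similar detection, the median difference on chromosome 13 was 0.38, -0.11 and -0.31. The medians were 0.10, -0.58 and -0.73 on chromosome 14 and 0.15, -0.40 and -0.74 on the X. Over all tested genes they were 0.18, -0.45 and -0.69. Rises per chromosome were counted only in the fit of all control embryos, and differences between chromosomes were not tested. Of the 4 Y-linked genes only Eif2s3y was tested, with a difference of -0.37 (SE 0.47), and it was listed at 0 in embryos of both stages. Xist, the RNA that silences an X chromosome, was under the filter, at 0 to 1.28 TPM in 4-cell embryos and 0 to 5.02 TPM in morulae.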
